A study of Mus musculus with 6 samples.

Results

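The genes described here are Igf2bp1, Igf2bp2, Igf2bp3, Lin28a, Lin28b, Hmga1, Hmga2, Arid3a and Sox4, a list of 9 genes known from fetal-type blood progenitors, of which 7 were measured among 19938 genes. A gene was taken as measured where a probe set carried its symbol alone in the platform annotation. The probe set of each gene was chosen by the highest mean over all 6 arrays, so these means served for the choice and are given only as a description. Igf2bp2 and Hmga1 were not analysed here.

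RNA was measured on Affymetrix arrays in 6 samples of mouse pre-B cells transformed by BCR-ABL1, the tyrosine kinase fusion that drives Philadelphia chromosome-positive acute lymphoblastic leukaemia. All cells came from mice of strain 129SvEv and all carried BCR-ABL1. In 3 samples the genotype was ETV5 WT (wild type) and in 3 it was ETV5 KO, lacking the ETS-family transcription factor Etv5. The design thus asks how each gene differs when Etv5 is missing from the transformed cells. The sources used here do not give the knockout allele, the delivery of BCR-ABL1, the age of the mice or whether samples came from separate mice or cultures. The p-values therefore measure only how these 6 samples vary, which may be technical variation.

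LIN28A and LIN28B are RNA-binding proteins that block maturation of the let-7 microRNAs and are abundant in fetal and scarce in adult blood stem cells. Mature let-7 pairs through its seed with messenger RNAs such as those of HMGA2, the IGF2BP proteins, ARID3A and LIN28 itself and lowers their output, so that these genes tend to be active together in fetal cells. IGF2BP1 to IGF2BP3 bind messenger RNAs through KH domains and affect their stability, transport and translation. HMGA1 and HMGA2 bend AT-rich DNA, ARID3A is a B lineage transcription factor that fosters fetal-type B cell development, and SOX4 is a transcription factor that early B cell precursors need.

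The let-7 sequences are shown because the seed is what pairs let-7 with its targets, several of the listed genes among them as background; sites in these genes were not searched. The 9 mature let-7 and miR-98 forms found in the RefSeq listing on GRCm38.p6 under 11 hairpin genes share 1 seed, bases 2 to 8, in capitals below. Mirlet7a-2, whose probe set is among those described further on, is not among these 11 genes. The forms shown lie at chr13:48538239-48538260 (minus strand, let-7a), chr13:48536078-48536099 (minus strand, let-7d), chr17:17830366-17830387 (plus strand, let-7e), chr9:106178846-106178867 (plus strand, let-7g) and chrX:151913229-151913250 (plus strand, miR-98).
let-7a-5p: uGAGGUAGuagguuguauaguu
let-7d-5p: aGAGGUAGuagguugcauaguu
let-7e-5p: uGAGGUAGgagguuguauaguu
let-7g-5p: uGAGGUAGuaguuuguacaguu
miR-98-5p: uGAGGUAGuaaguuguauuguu

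Etv5, the targeted gene, lies on chromosome 16 and had a pair of probe sets under its symbol. The dimmer is numbered among probe sets of chromosome 16 genes (10 of the 10 nearest by number). It gave 9.30, 9.52 and 9.27 in the wild-type samples against 8.97, 8.91 and 8.92 in the knockout samples. It fell by 0.43 (limma adjusted p = 0.0467), and its groups did not overlap, but the call was lost in all 6 fits without 1 sample (adjusted p 0.0712 to 0.18). For the brighter, the 10 nearest by number were all of chromosome 10 genes, so whether it reports Etv5 at its locus is in doubt. It gave 11.48, 11.52 and 11.46 against 11.67, 11.88 and 11.73, a difference of 0.28 (adjusted p = 0.13). The sources do not give the knockout allele or say where either probe set lies relative to it, so neither checks the genotype labels.

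Igf2bp3 was the only one of the 7 measured genes that differed between the genotypes past the threshold. On the log2 signal scale it gave 8.01, 7.78 and 7.99 in wild-type samples 1 to 3 and 10.27, 10.60 and 10.41 in knockout samples 1 to 3. All 3 knockout samples lay above all 3 wild-type samples, and the gap between the lowest knockout and the highest wild-type value was 2.26. The means were 7.93 ± 0.13 in the wild-type samples and 10.43 ± 0.17 in the knockout samples (SD, n = 3), a rise of 2.50 ± 0.11 (SE, log2; 95% interval 2.24 to 2.76; limma adjusted p = 0.000224 over all probe sets). It ranked 13th by size among the 483 genes that rose. Of the 7 genes, 1 rose, 0 fell and 6 did not pass. Beside these counts, 4.43% of all genes passed in either direction, 2.42% higher and 2.01% lower in the knockout, and 3.08% of all 35556 probe sets passed. An unadjusted limma p under 0.05 was found for 2 of the 7 genes. The share of all genes under that bound was not taken, so unadjusted counts, here and below, have no background beside them. The genes were put forward with the rise of Igf2bp3 already known, so its call is a description of these samples. The median change of the 7 genes was -0.0044, beside -0.0039 over all genes.

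**Figure D1:**
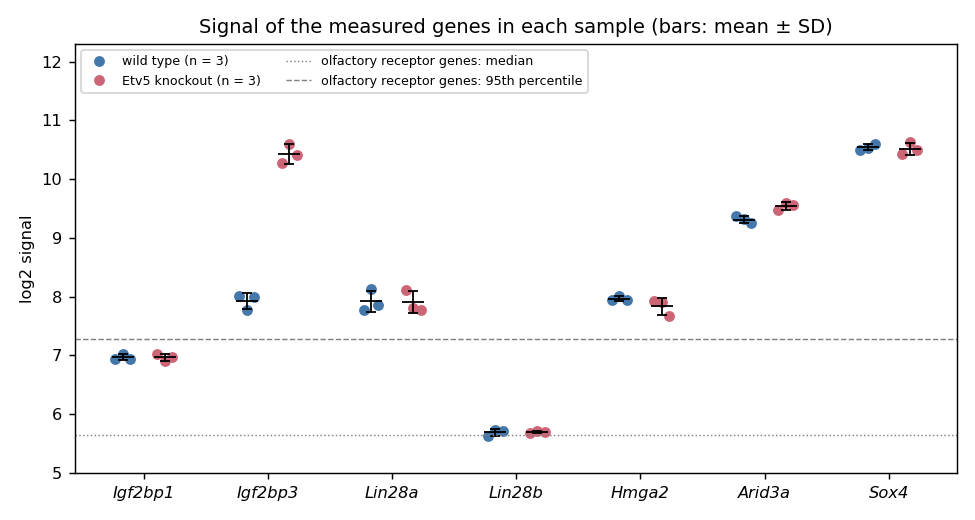
Log2 signal of each of the 7 measured genes in the 3 wild-type (blue) and 3 Etv5 knockout (red) samples, with the mean and SD of each genotype; grey lines give the median (5.64) and the 95th percentile (7.28) of the 6-array means of 1027 olfactory receptor genes. Igf2bp3 is near 7.93 in wild-type cells, against 10.43 in knockout cells. The knockout means of the other 6 genes lie within 0.24 of their wild-type means.

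How far a signal stood above background could not be read from detection calls, so olfactory receptor genes, which blood cells are thought not to use, served as a rough scale. The median of 1027 such genes was 5.64 and their 95th percentile was 7.28. Probe sets differ in affinity, so the scale places a gene only loosely. The wild-type mean of Igf2bp3 lay above 98.4% of the olfactory receptor genes and its knockout mean above 100% of them. Its signal in the wild type was therefore low but not among the dimmest. In bulk RNA, more cells with the transcript and more transcript per cell cannot be told apart.

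Igf2bp1, the paralog best known for stabilising the MYC messenger RNA, differed little between the genotypes. Its brighter probe set gave 6.94, 7.03 and 6.94 in wild-type cells, against 7.03, 6.90 and 6.97 in knockout cells. The groups overlapped, with a difference of -0.0044 (95% interval -0.15 to 0.14, limma adjusted p = 0.997). The dimmer probe set gave 5.67, 5.70 and 5.43 against 5.44, 5.88 and 5.71, a difference of 0.08 (adjusted p = 0.953). Both probe sets lay below the 95th percentile of the olfactory receptor genes, so a change of Igf2bp1 may not be detectable here. The change of Igf2bp3 exceeded that of Igf2bp1 by 2.51. As the rise of Igf2bp3 was known when the genes were listed and Igf2bp1 was dim, this difference is a description with no test.

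Neither Lin28 gene differed past the threshold. Lin28a, the form best known from embryonic stem cells, gave 7.78, 8.13 and 7.85 in wild-type cells, against 8.12, 7.81 and 7.78 in knockout cells. The ranges of the groups nearly coincided: wild-type sample 2 and knockout sample 1 were high and the remaining samples low. The difference was -0.02 (95% interval -0.33 to 0.30, limma adjusted p = 0.994), on the widest interval among the 7 genes. Lin28b, the form that marks fetal blood stem cells, gave 5.63, 5.74 and 5.71 against 5.68, 5.71 and 5.70, with overlapping groups. It differed by 0.0056 (95% interval -0.12 to 0.13, limma adjusted p = 0.996). Its mean lay above only 52.4% of the olfactory receptor genes, a level at which no Lin28b transcript could be told from background in either genotype. The changes of Lin28b and Lin28a differed by 0.02 (95% interval -0.37 to 0.42; two-sided exact permutation p = 0.70, where 3 samples against 3 allow no p below 0.10).

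Hmga2, whose product bends AT-rich DNA and supports self-renewal of fetal stem cells, gave 7.95, 8.01 and 7.94 in wild-type cells, against 7.93, 7.90 and 7.67 in knockout cells. The groups did not overlap, but by only 0.01, and knockout sample 3 was the low one. The difference was -0.13 ± 0.08 (SE, 95% interval -0.33 to 0.06, limma adjusted p = 0.717). Groups lay apart in 3 of the 7 genes, Igf2bp3, Arid3a and Hmga2, as they did in 20.5% of all genes.

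Arid3a gave 9.37, 9.31 and 9.25 in wild-type cells, against 9.48, 9.60 and 9.56 in knockout cells. Every knockout sample was above every wild-type sample, by at least 0.11. The difference was 0.24 ± 0.06 (SE, 95% interval 0.09 to 0.38), a 1.18-fold higher signal, with a limma adjusted p = 0.14. Across the alternative settings the adjusted p of Arid3a ran from 0.0593 to 0.40. Its relative Arid3b, a further let-7 target, differed by 0.11 (adjusted p = 0.856) and Arid3c by -0.04 (adjusted p = 0.967).

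Sox4 gave 10.50, 10.54 and 10.60 in wild-type cells, against 10.43, 10.62 and 10.49 in knockout cells. Knockout sample 2 was the highest and knockout sample 1 the lowest, so the groups overlapped. The difference was -0.03 (95% interval -0.19 to 0.13, limma adjusted p = 0.973). Among the related SOXC genes, Sox11 differed by 0.0049 (adjusted p = 0.997) and Sox12 by -0.10 (adjusted p = 0.870).

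**Figure D2:**
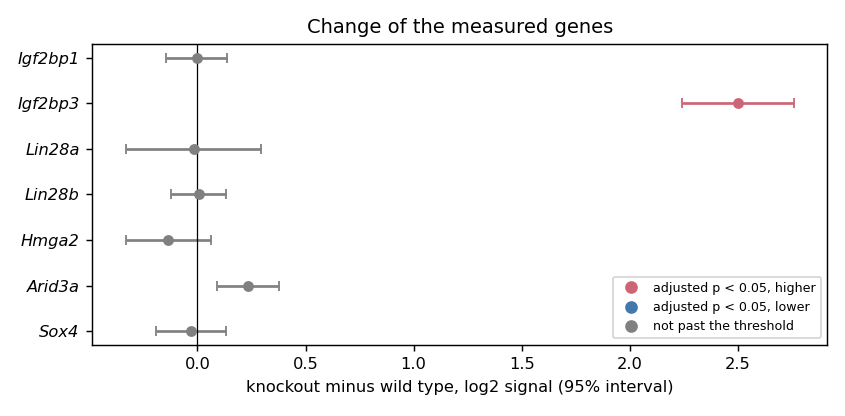
Knockout minus wild type on the log2 scale for the 7 measured genes, with 95% intervals from limma; red marks a gene past an adjusted p of 0.05. Igf2bp3 lies at 2.50 and apart from the rest; Arid3a, at 0.24, has an interval above 0 but an adjusted p of 0.14.

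The let-7 hairpin genes themselves showed no change past the threshold. The array holds probe sets for 10 let-7 or miR-98 hairpin genes, which report on hairpin or host RNA and not on mature let-7. Their changes ran from -0.19 to 0.13, and 7 of the 10 had means below the 95th percentile of the olfactory receptor genes. The brightest, Mirlet7i, was 8.24 ± 0.034 in the wild-type samples and 8.27 ± 0.026 in the knockout samples (SD, n = 3), a difference of 0.03 (limma adjusted p = 0.960). Mirlet7f-2 was the 1 of the 10 whose groups lay apart, beside 20.5% of all genes. It had means of 5.12 and 4.93 (adjusted p = 0.458), below the olfactory receptor median of 5.64. With the hairpin genes of the clustered miR-99, miR-100 and miR-125 families, 0 of 16 passed limma, beside 4.43% of all genes. For a list of this size 0 is close to that share, and 12 of the 16 had means below the same 95th percentile. Of the 16, 1 had an unadjusted p under 0.05. That gene, Mir100, differed by -0.14 (adjusted p = 0.451).

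Of the genes that mature or degrade let-7, 1 of 24 rose and 0 fell, a share close to the 4.43% of all genes, and the median change was 0.0015. The riser was Ago4, an Argonaute protein that holds microRNAs, which gave 8.45, 8.31 and 8.49 in wild-type cells, against 8.75, 8.95 and 8.84 in knockout cells. Its rise of 0.43 (limma adjusted p = 0.0464) lost its call in all 6 fits with 1 sample omitted (adjusted p 0.0642 to 0.169). Tut4 and Tut7, which add uridines to let-7 precursors bound by LIN28, differed by 0.02 and 0.20 (adjusted p = 0.961 and 0.253). The exonuclease gene Dis3l2, which degrades such uridylated precursors, differed by 0.02 (adjusted p = 0.984) and Dicer1 by -0.05 (adjusted p = 0.874).

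Other let-7 targets changed in both directions. Of 32 measured targets outside the list, 4 rose, 2 fell and 26 did not pass, a share of 18.75% called beside 4.43% of all genes. Their median change was 0.05. These targets were listed with earlier results of these data known, so their share is no independent evidence. The largest change was a fall of Igf1r, the IGF1 receptor gene, from 10.04, 10.07 and 10.17 in the wild type to 8.41, 8.40 and 8.40 in the knockout (log2 change -1.69, limma adjusted p = 9.8e-05). Irs2, an adaptor of that receptor, rose from 8.04, 8.21 and 8.25 to 9.20, 9.23 and 9.31 (change 1.08, adjusted p = 0.00116). Pbx3, a homeodomain cofactor, rose from 8.57, 8.59 and 8.58 to 9.52, 9.72 and 9.62 (change 1.04, adjusted p = 0.000747). Groups did not overlap in any of these 3 genes. Mycn rose by 0.48 (adjusted p = 0.00897), the TGF-beta receptor gene Tgfbr1 rose by 0.29 (adjusted p = 0.0411), and Prdm1, which directs plasma cell differentiation, fell by 0.28 (adjusted p = 0.0361). Trim71, a let-7 target of stem cells, differed by 0.12 (adjusted p = 0.81). Tgfbr1 and Prdm1 lost their calls in each of the 6 fits without 1 sample (highest adjusted p 0.185 and 0.176), and Mycn lost its call without wild-type sample 1 (0.0519). The 6-array mean of Prdm1, 7.16, lay below the 95th percentile of the olfactory receptor genes, 7.28.

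Among 14 transcripts reported to be bound by IGF2BP proteins, 2 rose, 0 fell and 12 did not pass, a share of 14.3% called beside 4.43% of all genes, with a median change of 0.0090. They too were listed with earlier results of these data known, so the share is no independent evidence. Cd44, the hyaluronan receptor gene, gave 8.51, 8.54 and 8.64 in wild-type cells, against 9.41, 9.53 and 9.48 in knockout cells. It rose by 0.91 (limma adjusted p = 0.00108), and the groups did not overlap; the second riser was Mycn. The cell cycle kinase gene Cdk6, known as a transcript that IGF2BP3 stabilises in leukaemia, differed by -0.20 (adjusted p = 0.18), Myc by -0.12 (adjusted p = 0.417) and the growth factor gene Igf2 by -0.13 (adjusted p = 0.831). With a variance trend and robust settings Cdk6 and Myc passed as lower (adjusted p = 0.0227 and 0.0334). Among 22 partners of IGF2BP ribonucleoproteins and factors that write, erase or read N6-methyladenosine, 0 passed limma, beside 4.43% of all genes. In this list 0 had an unadjusted p under 0.05. Their changes ran from -0.10 to 0.11; Zc3h13, of the methyltransferase complex, had the smallest p and differed by -0.10 (adjusted p = 0.585). Of 30 other KH-domain and cold-shock proteins, 0 passed limma, beside the same 4.43%, and 2 had an unadjusted p under 0.05. Counts of 0 in lists of these sizes are close to that share. Nova1, an RNA-binding protein of neurons, differed by 0.28 (adjusted p = 0.242).

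Among 31 measured SOX and ARID genes outside the list, 3 rose, 2 fell and 26 did not pass, a share of 16.1% called beside 4.43% of all genes. The median change was 0.01. As earlier results of these data were known when they were listed, the share is no independent evidence. Sox15 fell from 9.72, 9.80 and 9.83 to 8.42, 8.29 and 8.29, a log2 change of -1.44 (limma adjusted p = 0.000225). Arid5b, a transcriptional coregulator in which common variants affect the risk of childhood leukaemia, rose from 8.25, 8.20 and 8.31 to 9.01, 9.16 and 9.02 (change 0.81, adjusted p = 0.0019). In both genes the groups did not overlap. Arid5a, whose product binds and stabilises certain cytokine transcripts, rose by 0.65 (adjusted p = 0.00611) and the histone demethylase gene Kdm5b rose by 0.63 (adjusted p = 0.0222), whereas Sox13, of the SOXD group, fell by 0.39 (adjusted p = 0.0426). Of 23 other HMG proteins, Hmgn3, a nucleosome-binding protein, fell by 0.82 (adjusted p = 0.00173) and 22 did not pass, a share of 4.35% called beside the same 4.43%. Sox13 lost its call in each of the 6 fits without 1 sample (highest adjusted p 0.168), and Kdm5b in all but the fit without knockout sample 2 (highest 0.105). The 6-array mean of Kdm5b, 6.97, lay below the 95th percentile of the olfactory receptor genes, 7.28.

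**Figure D3:**
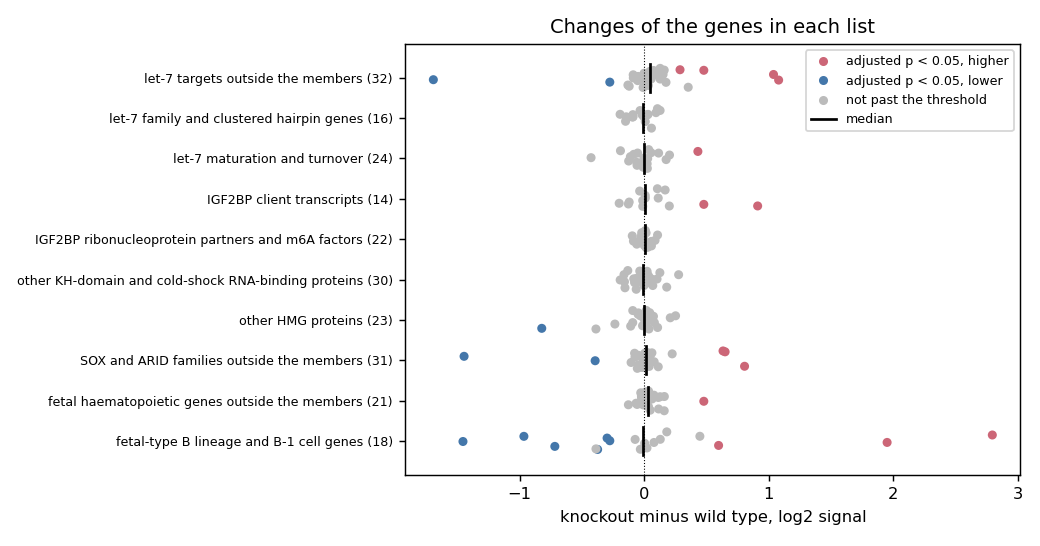
Knockout minus wild type on the log2 scale for every measured gene of 10 lists (number measured in brackets); red and blue mark genes past an adjusted p of 0.05, higher and lower, and black bars give list medians. The medians lie between -0.01 and 0.05, while single genes reach 2.79 (Bhlhe41) and -1.69 (Igf1r).

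Fetal blood genes outside the list mostly showed no change past the threshold. Of 21 measured, 1 rose, which was Mycn, 0 fell and 20 did not pass, with changes of the latter between -0.13 and 0.16. In 10 of the 21 the mean lay below the 95th percentile of the olfactory receptor genes, so for these a change may have gone undetected. The share that passed, 1 of 21, was close to that of all genes.

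Genes of fetal-type B lineage and B-1 cells, the B cells that arise mainly from fetal progenitors, changed in both directions. Of 18 measured, 3 rose, 6 fell and 9 did not pass, a share of 50% beside 4.43% of all genes, with a median change of -0.01. This list was drawn up with the changes of Bhlhe41, Cd5, Cd9, Dntt and Itgam known, so its share is no independent evidence. Bhlhe41, a repressor that B-1a cells need, rose from 6.99, 6.81 and 7.14 to 9.61, 9.84 and 9.87 (change 2.79, limma adjusted p = 0.000181). Siglecg, an inhibitory sialic acid receptor that restrains B-1 cells, rose from 8.60, 8.72 and 8.68 to 10.48, 10.73 and 10.65 (change 1.95, adjusted p = 0.00019). The groups did not overlap in either gene. Itgam, the integrin CD11b, found on body-cavity B-1 cells and myeloid cells, rose by 0.60 (adjusted p = 0.0235).

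In the other direction, Ctla4, an inhibitory receptor of T cells and B-1a cells, fell from 9.28, 9.24 and 9.48 to 7.76, 7.93 and 7.95 (change -1.45, limma adjusted p = 0.000729). Cd5, the antigen that defines B-1a cells, fell from 8.99, 9.08 and 9.17 to 8.19, 8.52 and 8.38 (change -0.72, adjusted p = 0.0156). Dntt, which adds non-templated nucleotides to joined receptor genes and is scarce in fetal B lymphopoiesis, fell from 11.83, 11.80 and 11.80 to 11.41, 11.49 and 11.41 (change -0.37, adjusted p = 0.0132). The groups were apart in all 3 genes, and Dntt stayed bright in the knockout. Cd9 fell by 0.96 (adjusted p = 0.0174), Pstpip2 by 0.30 (adjusted p = 0.0345) and Prdm1 as given above. In the fits without 1 sample, Dntt lost its call without any 1 of the wild-type samples or without knockout sample 3, as did Cd5 (highest adjusted p 0.0809 and 0.0702), and Cd9 without wild-type sample 1 or 2 or knockout sample 2 (highest 0.0863). Itgam lost it without wild-type sample 1 or 3 or knockout sample 1 or 2 (highest 0.112), and Pstpip2 in all 6 fits (highest 0.152).

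**Figure D4:**
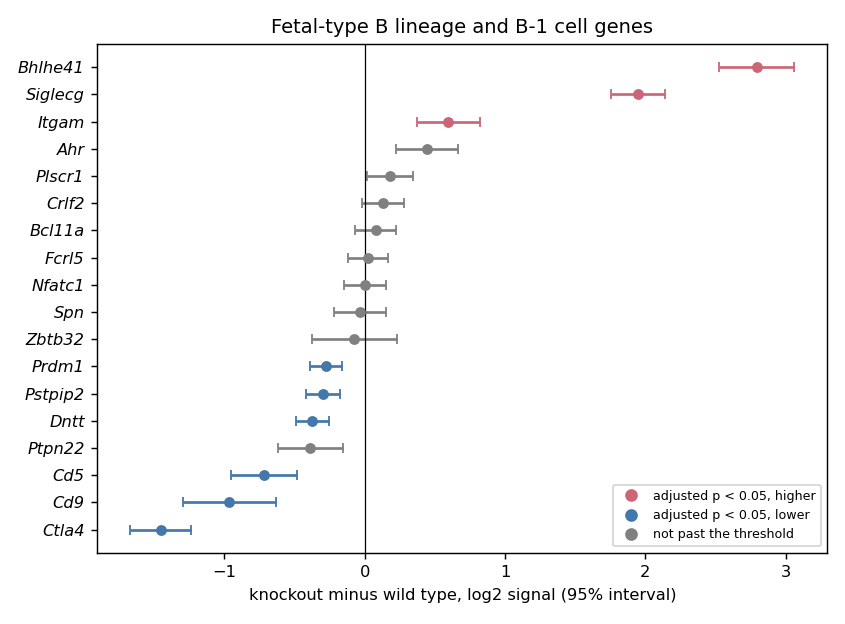
Knockout minus wild type on the log2 scale, with 95% intervals from limma, for the 18 measured genes of fetal-type B lineage and B-1 cells. Risen genes (red) include Bhlhe41 at 2.79 and Siglecg at 1.95, and fallen genes (blue) include Ctla4 at -1.45 and Cd5 at -0.72.

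The genes whose values over the 6 arrays followed those of Igf2bp3 most closely were Ell2, Entpd1, Foxc1, Inppl1 and Samhd1, with Pearson r from 0.99898 to 0.99989. They rose by 1.16, 0.82, 1.47, 0.81 and 1.21 on the log2 scale. Of 19937 genes, 294 had r above 0.98. The 6 arrays share the step between the genotypes, so r is given as a description with no test. In each of the 5 genes the lowest wild-type value was in sample 2, as in Igf2bp3, and the highest knockout value was also in sample 2.

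Genes next to Igf2bp3 on chromosome 6 did not share its rise. By gene order in GRCm38.p6, its nearest measured neighbours were Svs1, Gpnmb and Malsu1 on one side and Tra2a, Ccdc126 and Fam221a on the other. Their changes ran from -0.47 to -0.0023, and Fam221a fell (log2 change -0.47, limma adjusted p = 0.0178), while the others did not pass. Fam221a lost its call in 4 of the 6 fits without 1 sample, all but those without knockout sample 1 or 2 (highest adjusted p 0.0884). Across the 9 listed genes, 2 of 54 neighbours passed by their brightest probe set, beside 4.43% of all genes, the second being Cd52 near Lin28a on chromosome 4, a surface antigen of lymphocytes (0.46, adjusted p = 0.0339); it lost its call in each such fit but that without knockout sample 1 (highest 0.148). Igf2bp2 lies on chromosome 16 beside Tra2b and Etv5, the targeted gene. The 4 other measured neighbours differed by -0.06 to 0.05; 0 passed limma and 0 had an unadjusted p under 0.05. Like that of Etv5, the brightest Tra2b probe set is numbered apart from chromosome 16. The Tra2b probe set numbered there differed by -0.07 (adjusted p = 0.917), and the Etv5 one is the dimmer, which fell. With these probe sets 3 of the 54 neighbours passed. Whether the probe sets of the other neighbours are numbered on their own chromosomes was not checked.

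The sequence before the start of Igf2bp3 is shown because it is the gene that rose and the missing factor belongs to the ETS family, whose members bind sites with a GGAA core. The 250 bases before the RefSeq start, at chr6:49214955-49215204 of GRCm38.p6 on the minus strand, lie upstream of the gene. Capitals mark GGAA on either strand (TTCC on the strand printed) and the palindrome CACGTG, the core of an E-box.
Igf2bp3 promoter: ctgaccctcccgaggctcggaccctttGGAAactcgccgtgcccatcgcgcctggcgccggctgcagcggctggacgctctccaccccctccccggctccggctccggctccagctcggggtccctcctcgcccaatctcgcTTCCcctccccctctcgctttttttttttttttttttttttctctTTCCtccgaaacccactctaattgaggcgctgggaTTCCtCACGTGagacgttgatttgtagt

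The window held 4 GGAA matches, and 33.4% of 32851 promoter windows of this length held at least 4, while 93.4% held 1 or more. The longer ETS core CCGGAA, which contains GGAA, was searched on both strands and had 0 matches, beside 12.03% of all windows with 1 or more. CACGTG, a motif added after the sequence was seen, had 1 match, as did at least 1 in 6.02% of windows. These matches describe letters in the window and not binding. Of the listed genes, 7 had a promoter in the table, Igf2bp1 and Arid3a not among them, and CCGGAA was in none of their windows; Lin28b also held CACGTG.

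The identity of the cells was checked against markers. All 11 measured B cell precursor markers were bright, with means from 9.31 to 14.27. Of them 1, Pax5, passed, a share of 9.09% beside 4.43% of all genes, and 2 had an unadjusted limma p under 0.05. Pax5 rose by 0.43 (limma adjusted p = 0.0127), a call lost without wild-type sample 1 or 2 or knockout sample 3 (highest adjusted p 0.0751). The summed signal of 12 myeloid markers was 10.99 to 11.06 in the wild type and 11.04 to 11.23 in the knockout (log2), with 9 of 12 below the 95th percentile of the olfactory receptor genes. Among the 12, 1 passed, a share of 8.33% beside 4.43% of all genes. This was Ly6g, a granulocyte antigen of the Ly6 family, which rose by 1.14 (limma adjusted p = 0.0156), a call lost without wild-type sample 1 or knockout sample 2 or 3 (highest 0.0694). An unadjusted limma p under 0.05 was found for 3 of the 12, Ly6g, Cd68 (0.34, adjusted p = 0.278) and Fcgr1 (0.20, adjusted p = 0.308), all higher in the knockout. The means of Ly6g (7.12) and Fcgr1 (6.75) lay below the 95th percentile of the olfactory receptor genes. Among the 11 that did not pass, 4 were higher in the knockout, Cd68 and Fcgr1 included, and the rest lower. The lowest change was that of Lyz2, whose groups did not overlap (-0.32, adjusted p = 0.473). The median change of the 12 was -0.0098. The part of these genes in the results above was not tested. No change passed limma among 10 T and NK cell markers (10.22 to 10.32 against 10.23 to 10.39), 7 erythroid markers (12.99 to 13.09 against 13.05 to 13.11) or 11 hepatocyte and stromal markers (10.89 to 11.13 against 10.92 to 11.07), of which 2, 0 and 0 had an unadjusted p under 0.05. In lists this short, 0 is close to the 4.43% of all genes. The members of these 3 lists with the smallest p were Cd4 (-0.19, adjusted p = 0.305), Epor (-0.15, adjusted p = 0.477) and Col1a2 (-0.13, adjusted p = 0.872). The erythroid sum was mostly the signal of Tfrc, with a mean of 12.85, while the other erythroid markers had means from 6.93 to 7.91. That sum therefore says little about the other erythroid markers. Array medians were 7.79 to 7.84, and the median SD within a genotype was 0.087 in wild-type cells, against 0.098 in knockout cells.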

How the data were processed

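Biotin-labelled total RNA of 6 samples was measured on 1-colour arrays, per the labels. The authors deposited log2 values of 35556 probe sets; the submitters' processing notes name RMA and Partek 6.5. RMA compresses differences of dim probe sets. The sources used here give no chip definition, filter or detection call. By the platform annotation, 21789 probe sets had 1 gene, 1621 several and 12146 none listed, and the brightest single-gene probe set stood for a gene. The place of probe sets by number was checked only for the measured listed genes, Etv5 and Tra2b. Probe sets of other genes may report another locus. Genotypes were compared with lmFit and eBayes of limma 3.58.1 (R 4.3.3), without covariates or a filter, with Benjamini-Hochberg adjustment over all probe sets and a threshold of 0.05. All differences are knockout minus wild type. The fit was tested on simulated data. Precision is limited by the number of arrays.

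The genes and the 15 lists were chosen with earlier results of these data known; 282 of 306 list entries were measured. The text names the listed genes, Etv5, the called genes of each list (at most 6, by p; where none passed, the smallest p), 3 neighbours on each side where a result turns on them, and the 5 genes most like Igf2bp3. Arid3b, Arid3c, Sox11, Sox12, Mirlet7i, Mirlet7f-2, Tut4, Tut7, Dis3l2, Dicer1, Trim71, Cdk6, Myc, Igf2, Itgam, Pstpip2, Cd68, Fcgr1, Lyz2 and Tfrc were added once their values had been seen. Of 4 planned paralog pairs, 2 needed Igf2bp2 or Hmga1 and were not run. The pair of Igf2bp3 and Igf2bp1 is given without its planned test. Promoter and microRNA sequences are from RefSeq tables.

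Other settings tried were a block for the sample number; leaving out the 40% dimmest probe sets; testing probe sets of 1 gene alone; renormalizing by quantiles, by the array median or by cyclic loess; eBayes with trend and robust options; weights per array; dropping each sample in turn; a threshold of 0.10; and averaging the probe sets of a gene.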

Additional observations from a re-analysis of the deposited data

How the results depend on the processing

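The count of listed genes past the threshold was 1, Igf2bp3, under each alternative tried, with its change between 2.42 and 2.58 and its highest adjusted p at 0.00729, with the replicate block. None of the other 6 measured genes passed under any alternative; over the 103 values of the 7 genes the sign changed in 9, all for genes whose change did not pass. The filter on dim probe sets kept 5 of the 7 genes, so Igf2bp1 and Lin28b have no value there. The count over all probe sets, 1095, ran from 565 to 857 when 1 sample was left out. With the replicate block it was 544 and with median centring 1048. The remaining refits counted over probe sets gave more, from 1294 without the dimmest 40% to 1452 with array weights. A threshold of 0.10 gave 1475. The sample numbers are not shown to pair the samples: same-numbered samples had correlations of deviations of -0.12, 0.02 and 0.26, and 2 of 6 samples correlated best with their own number. Of 32 named genes past the threshold, 16 kept their call under all alternatives and 15 lost it in at least 1 fit without a sample. The replicate block ended 12 named calls, those of Mycn, Tgfbr1, Prdm1, Ago4, Sox13, Arid5a, Kdm5b, Dntt, Pstpip2, Pax5, Fam221a and Cd52 (adjusted p 0.0521 to 0.188; Arid5a, which kept its call elsewhere, 0.0531). Median centring ended 4, of Prdm1, Ago4, Pstpip2 and Cd52 (0.0502 to 0.0614), and cyclic loess (0.0557 and 0.0625) and the variance trend (0.0966 and 0.0782) those of Prdm1 and Pstpip2. The brighter Etv5 probe set, numbered among chromosome 10 genes and so of doubtful locus, passed as higher with probe sets of 1 gene alone (adjusted p 0.0486) and with the variance trend (0.0437). No alternative reversed a called direction. With no detection calls, changes of probe sets near the olfactory receptor level, Lin28b and Igf2bp1 among them, may go undetected. The dimmer Etv5 probe set lost its call with the block, quantile normalization and cyclic loess (adjusted p 0.144, 0.0815 and 0.055).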
